A study of Homo sapiens with 8 samples.

Results

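The DLK1-DIO3 cluster is an imprinted region of human chromosome 14 that holds 3 protein-coding genes, a series of long noncoding RNAs and 2 families of small nucleolar RNAs (snoRNAs). Its probes were taken by symbol, as those annotated to DLK1, MEG3, MEG8, MEG9, RTL1, DIO3, or a SNORD113 or SNORD114 gene. The rule gave 43 of the 21552 genes with a symbol on the array, measured by 52 of its 50599 probes. The cluster was chosen by its difference between the 2 groups of arrays compared here, which earlier results of these data had shown. The sizes of that difference are therefore a description and carry no test. Of the 52 probes, 38 measure snoRNAs (8 SNORD113 and 30 SNORD114 probes, of 37 of the 40 such genes in the RefSeq table), 9 measure MEG3, MEG8 or MEG9, and 5 measure DLK1, RTL1 or DIO3.

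The study asked how CFC1, a co-receptor of the Nodal pathway, affects transcription in NGP cells, an established human neuroblastoma line. Cells received a mock construct or CFC1 cDNA by lentivirus and were selected with puromycin in both cases, and total RNA was hybridised to 8 one-colour arrays, 4 per group. The labels name no clone, time after selection or separate culture, so errors here measure the spread between arrays, which may be technical. Each value is on a logarithmic scale, read as log2, relative to a baseline per probe that the sources used here do not state. A value of 0 is therefore no absence of RNA, and levels of different probes cannot be compared. Array medians over all probes lay between -0.144 and 0.138.

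CFC1 itself was not higher in the group labelled CFC1. Its probe averaged 0.416 ± 0.503 (SD, n = 4) on the mock arrays and -0.380 ± 0.335 (SD, n = 4) on the others, a difference of -0.80 with an exact two-sided permutation p of 0.057 (smallest possible 0.029) and a limma adjusted p of 0.0546. Without mock replicate 4 that difference was -0.944, and without CFC1 replicate 1 it was -0.941, and both then passed the limma threshold. Other genes differed between the groups by far more than any member, among them NOTCH2, with probes at 7.25 and 8.22, and GRB10, with probes at 7.15 and 8.44. No value here checks that the group labels are right or that the groups differ by CFC1 alone. The group is therefore called the arrays labelled CFC1 throughout, and each difference is one between arrays as labelled. Whether the cDNA holds the sequence that this probe detects is not given in the sources used here. Of 17 probes of chromaffin and adrenergic genes, which mark neuroblastoma cells, 1 was higher and 13 were lower in the arrays labelled CFC1, with a median difference of -1.66. Among them the vesicular monoamine transporter SLC18A1 differed by -4.12 and -1.92, STMN2, a regulator of neuronal microtubules, by -3.92, and DOPA decarboxylase DDC by -3.34 and -1.68. PHOX2A, a transcription factor that specifies autonomic neurons, differed by 0.02 (SE 0.288, not called). TH had the 1 probe called higher, at 0.41, and another at -0.27 (not called). Smaller falls were those of DBH (-0.62), HAND2 (-0.41) and GATA3 (-0.35). Of 32 probes of fibroblast, mural, endothelial, blood, epithelial and Schwann cell markers, 2 were higher and 16 lower, with a median of -0.25. Beside these counts, and those of every list below, limma called 22.1% of all probes lower and 20.0% higher. Since the values hold no level, summed levels of these markers and markers at 0 cannot be given. Fewer cells of a type and less RNA per cell cannot be told apart in such samples, and the part that these markers play in the differences below was not tested.

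In imprinted clusters a gene is transcribed mainly from the chromosome inherited from one parent. Here DLK1, RTL1 and DIO3 are known to be expressed from the paternal chromosome, and MEG3, MEG8, MEG9 and the snoRNAs from the maternal one, under control of a methylated element between DLK1 and MEG3. The snoRNAs are of the C/D box class and lie in introns of long maternal transcripts, from which they are released during splicing. Most C/D box snoRNAs guide ribose methylation of ribosomal RNA, while the SNORD113 and SNORD114 families have no such established target. DLK1 is known from chromaffin cells and neuroblastoma.

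The sequences before the start sites of the members with an entry in the RefSeq promoter table (GRCh38.p14) are shown, with motifs in capitals. Whether the members share a control was not tested. The motifs searched on both strands were the palindromic cAMP response element TGACGTCA and the TATA box letters TATAAA, which share no overlap here. The windows run from 250 bases before to 50 after the start, or to the base before it for RTL1 and DIO3. The window of MEG3 is chr14:100825858-100826157 on the plus strand (the first of 3 windows listed), and that of MEG9 is chr14:101069661-101069960 on the plus strand. The window of RTL1 is chr14:100903723-100903972 on the minus strand, and that of DIO3 is chr14:101561245-101561494 on the plus strand.
MEG3: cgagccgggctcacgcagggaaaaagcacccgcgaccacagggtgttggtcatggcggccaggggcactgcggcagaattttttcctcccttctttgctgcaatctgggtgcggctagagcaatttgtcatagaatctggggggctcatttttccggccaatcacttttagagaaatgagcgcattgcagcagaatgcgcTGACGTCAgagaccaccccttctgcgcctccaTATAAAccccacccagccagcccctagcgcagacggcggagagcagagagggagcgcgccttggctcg
MEG9: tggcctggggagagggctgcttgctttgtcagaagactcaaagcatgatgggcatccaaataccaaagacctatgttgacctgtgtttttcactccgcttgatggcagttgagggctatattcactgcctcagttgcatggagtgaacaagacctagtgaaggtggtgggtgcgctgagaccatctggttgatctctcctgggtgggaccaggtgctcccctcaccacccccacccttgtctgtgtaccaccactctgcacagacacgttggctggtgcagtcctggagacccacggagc
RTL1: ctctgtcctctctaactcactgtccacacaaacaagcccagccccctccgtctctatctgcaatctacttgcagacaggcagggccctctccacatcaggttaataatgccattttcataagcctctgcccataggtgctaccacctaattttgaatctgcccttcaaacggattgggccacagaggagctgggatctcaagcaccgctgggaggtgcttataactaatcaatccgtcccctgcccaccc
DIO3: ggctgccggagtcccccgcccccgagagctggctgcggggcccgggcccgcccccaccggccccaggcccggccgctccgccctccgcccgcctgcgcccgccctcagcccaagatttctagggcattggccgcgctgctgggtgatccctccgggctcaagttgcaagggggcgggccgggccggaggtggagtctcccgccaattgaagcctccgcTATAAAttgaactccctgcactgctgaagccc
The MEG3 window holds TGACGTCA from 50 bases and TATAAA from 18 bases before the annotated start. The DIO3 window holds TATAAA from 32 bases before its start, and the other two windows hold neither motif. TGACGTCA occurs in 649 of the 35116 windows of the table (1.85%) and TATAAA in 4049 (11.5%). Counted over 300 bases for each gene, the windows of MEG3, DIO3, MEG9 and RTL1 hold 19, 28, 4 and 6 CG dinucleotides, where the median window of the table holds 14. These matches describe the letters of the windows and are no evidence of binding.

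Nearly the whole cluster was lower in the arrays labelled CFC1. The noncoding probes had a median difference of -3.36 on the log2 scale (arrays labelled CFC1 minus mock), and the protein-coding probes had a median of -1.74. By limma, with an adjusted p below 0.05, 49 of the 52 probes were called lower, and the groups did not overlap in 49. Over all probes, 22.1% were called lower and 20.0% higher, and 22.3% lay lower without overlap. Since the cluster was chosen for this contrast, nothing is read from the counts of its members. None of the 52 was called higher, and at an unadjusted p below 0.05 the count was also 0. A difference of -3 or below was found in 40 members (76.9%) and in 1.09% of all probes. The median difference over all probes was -0.13.

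**Figure D1:**
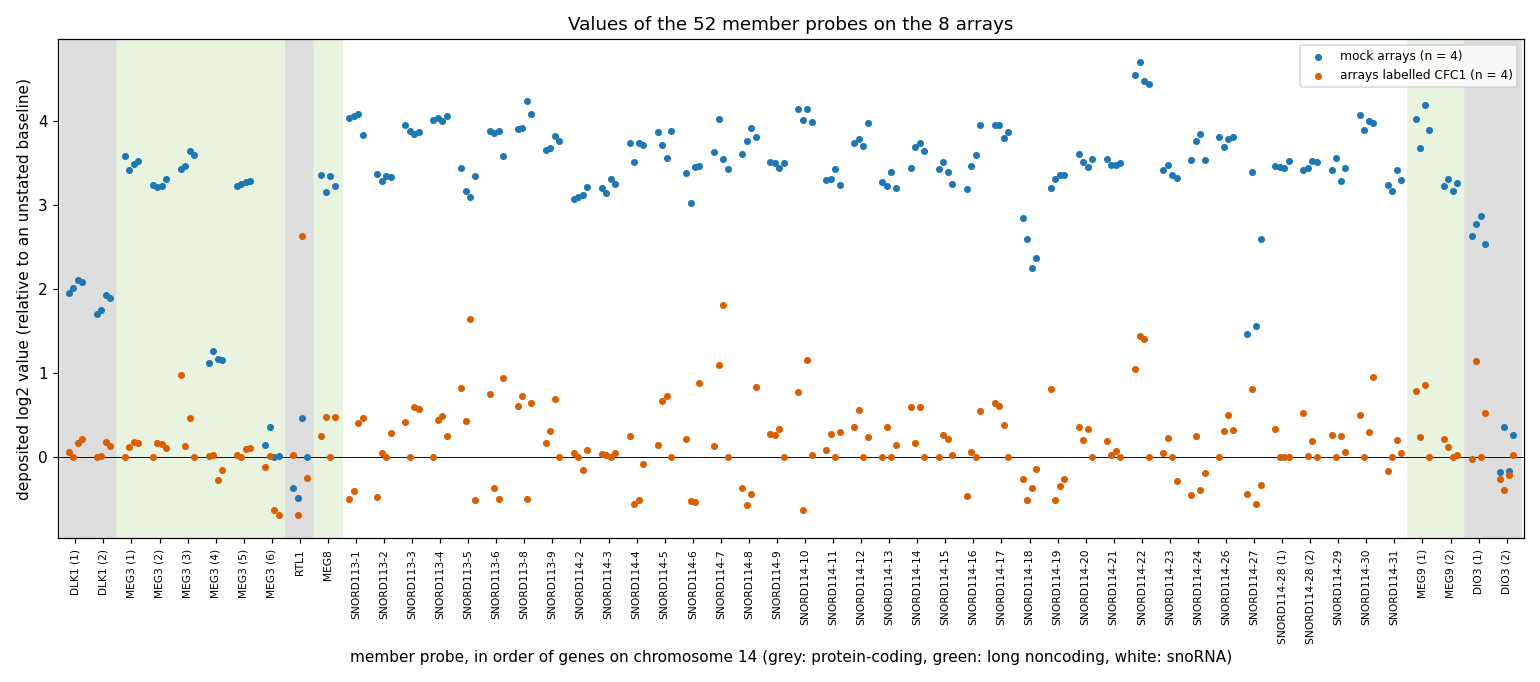
Deposited log2 values (vertical axis, relative to an unstated baseline) of the 52 member probes on the 4 mock arrays (blue) and the 4 arrays labelled CFC1 (orange), in gene order on chromosome 14, with each point 1 array. In 49 probes all mock points lie above all points of the arrays labelled CFC1, and the 3 that overlap are MEG3 (6), RTL1 and DIO3 (2).

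Among the long noncoding RNAs, MEG3 was measured by 6 probes, numbered here by probe identifier. MEG3 is a maternally expressed RNA described as a growth suppressor in several tumours. The first MEG3 probe read 3.58, 3.42, 3.48 and 3.51 on mock replicates 1 to 4, and 0.00, 0.12, 0.18 and 0.17 on replicates 1 to 4 of the arrays labelled CFC1, a difference of -3.38 (SE 0.060, 95% interval -3.52 to -3.24). The second read 3.23, 3.21, 3.22 and 3.31 against 0.00, 0.17, 0.15 and 0.10, in the same order, a difference of -3.14 (SE 0.054). These probes separated the groups by far more than the range within either. The fifth probe read 3.22, 3.25, 3.27 and 3.28 against 0.03, 0.00, 0.10 and 0.11, a difference of -3.20 (SE 0.045), the smallest standard error of the 6. The third probe read 3.43, 3.46, 3.64 and 3.59 against 0.97, 0.13, 0.47 and 0.00, a difference of -3.14 (SE 0.206). Its mock values were tight, while its values in the arrays labelled CFC1 covered almost 1 log2 unit.

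The remaining MEG3 probes differed less. The fourth read 1.11, 1.26, 1.16 and 1.16 on the mock arrays and 0.01, 0.03, -0.27 and -0.16 on the arrays labelled CFC1, a difference of -1.27 (SE 0.079). The groups stayed apart, but by less than in the 4 probes above. The sixth, annotated to an Ensembl transcript, read 0.14, 0.35, 0.00 and 0.01 against -0.12, 0.02, -0.63 and -0.70, a difference of -0.48 (SE 0.184, 95% interval -0.91 to -0.05). The groups overlapped there, since replicate 2 of the arrays labelled CFC1 lay above 2 mock arrays, and the probe was not called. Without that replicate the difference was -0.61 and the probe was called. The 6 probes thus disagree on size, from -3.38 to -0.48, and which MEG3 transcripts each detects is not given in the sources used here.

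MEG8 is the long transcript in which many of these snoRNAs are annotated. Its probe read 3.35, 3.15, 3.34 and 3.22 on the mock arrays and 0.25, 0.47, 0.00 and 0.48 on the arrays labelled CFC1, a difference of -2.97 (SE 0.117, 95% interval -3.24 to -2.69). MEG9 lies past the snoRNAs towards DIO3. Its first probe read 4.02, 3.68, 4.19 and 3.89 against 0.79, 0.24, 0.85 and 0.00, a difference of -3.47 (SE 0.217). The second read 3.23, 3.30, 3.16 and 3.25 against 0.21, 0.11, 0.00 and 0.03, a difference of -3.15 (SE 0.063). All 3 probes kept the groups at least 2 log2 units apart. Across the 9 probes of the 3 long RNAs, the median on a mock array averaged 3.26 ± 0.022 (SD, n = 4) and that on an array labelled CFC1 averaged 0.066 ± 0.046 (SD, n = 4).

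All 38 SNORD113 and SNORD114 probes were lower in the arrays labelled CFC1, with differences from -4.0 to -2.38, a median of -3.38 and an SD over probes of 0.33. Their median on a mock array ranged from 3.511 to 3.526, and on an array labelled CFC1 from 0.021 to 0.174. In 36 of the 38 probes all 4 mock values were above 3, and 27 of the 38 differences lay between -3.6 and -3.1. Of the 152 values on arrays labelled CFC1, 7 were above 1. SNORD113 probes had a median difference of -3.54 and SNORD114 probes of -3.34. Members of each family are similar in sequence to one another, so probes may share targets, and the 38 probes are not independent measurements. The 26 snoRNA probes not named below had differences from -3.66 to -3.15, with a median of -3.38.

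The 6 snoRNAs with the largest differences were spread along the array of genes. SNORD113-1, the first of the series in gene order, read 4.03, 4.05, 4.07 and 3.83 on the mock arrays and -0.50, -0.40, 0.41 and 0.46 on the arrays labelled CFC1, a difference of -4.0 (SE 0.242). SNORD113-4 read 4.01, 4.03, 3.99 and 4.05 against 0.00, 0.44, 0.49 and 0.25, a difference of -3.72 (SE 0.108). Both were tight on the mock arrays and wider on the others. SNORD114-8 read 3.60, 3.76, 3.91 and 3.80 against -0.37, -0.57, -0.44 and 0.84, a difference of -3.91 (SE 0.306). SNORD114-4 read 3.73, 3.50, 3.74 and 3.71 against 0.25, -0.56, -0.52 and -0.08, a difference of -3.90 (SE 0.186). In SNORD114-8, replicate 4 of the arrays labelled CFC1 stood above the other 3, and it did not in SNORD114-4. SNORD114-24 read 3.53, 3.75, 3.84 and 3.53 against -0.46, 0.24, -0.39 and -0.19, a difference of -3.86 (SE 0.165). SNORD114-10 read 4.14, 4.0, 4.14 and 3.99 against 0.78, -0.63, 1.15 and 0.02, a difference of -3.74 (SE 0.365). Relative to these standard errors, the 6 differences cannot be put in order.

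The 6 smallest snoRNA differences were still below -2. SNORD114-13 read 3.26, 3.22, 3.38 and 3.20 on the mock arrays and 0.00, 0.36, 0.00 and 0.14 on the arrays labelled CFC1, a difference of -3.14 (SE 0.093). SNORD114-2 read 3.07, 3.08, 3.12 and 3.21 against 0.04, 0.00, -0.15 and 0.08, a difference of -3.13 (SE 0.066). Both kept the groups more than 2 log2 units apart. SNORD114-7 read 3.63, 4.02, 3.54 and 3.42 against 0.12, 1.09, 1.81 and 0.00, a difference of -2.90 (SE 0.409). SNORD114-18 read 2.83, 2.59, 2.24 and 2.36 against -0.26, -0.51, -0.36 and -0.14, a difference of -2.82 (SE 0.143). For SNORD114-7, 2 arrays labelled CFC1 were above 1, and for SNORD114-18 all 4 mock values were below 3. SNORD113-5 read 3.43, 3.16, 3.09 and 3.34 against 0.82, 0.42, 1.64 and -0.52, a difference of -2.67 (SE 0.415). SNORD114-27 read 1.47, 3.39, 1.55 and 2.60 against -0.45, 0.81, -0.56 and -0.33, a difference of -2.38 (SE 0.509). In SNORD114-27 replicate 2 was the highest array of both groups, and the lowest mock value stayed above the highest value of the arrays labelled CFC1.

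The protein-coding genes were less alike. DLK1 encodes a transmembrane protein related to the Notch ligands. Its first probe read 1.95, 2.0, 2.11 and 2.08 on the mock arrays and 0.06, 0.00, 0.17 and 0.21 on the arrays labelled CFC1, a difference of -1.92 (SE 0.065, 95% interval -2.08 to -1.77). The second read 1.70, 1.75, 1.93 and 1.89 against 0.00, 0.01, 0.18 and 0.13, a difference of -1.74 (SE 0.074, 95% interval -1.91 to -1.56). Both DLK1 probes separated the groups, and their intervals overlap.

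DIO3 encodes the deiodinase that inactivates thyroid hormone. Its first probe read 2.62, 2.77, 2.87 and 2.53 on the mock arrays and -0.02, 1.15, 0.00 and 0.52 on the arrays labelled CFC1, a difference of -2.29 (SE 0.263, 95% interval -2.90 to -1.67). The second read -0.18, 0.35, -0.17 and 0.26 against -0.26, -0.39, -0.21 and 0.02, a difference of -0.27 (SE 0.154, 95% interval -0.63 to 0.09). The first probe separated the groups, while the second overlapped, was not called and varied around 0 on all 8 arrays. RTL1 derives from a retrotransposon Gag-Pol sequence and is known for its role in placenta and muscle. Its probe read -0.37, -0.49, 0.46 and 0.00 against 0.02, -0.69, 2.62 and -0.25, a difference of 0.53 (SE 0.708, 95% interval -1.14 to 2.19). Replicate 3 was the highest array of both groups for RTL1, the groups overlapped, and the interval covers both a rise and a fall. Without replicate 3 of the arrays labelled CFC1 the RTL1 difference was -0.205, so its sign rested on that array.

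Set side by side, the differences between the groups were larger in size for most noncoding probes than for the coding ones. The median over noncoding probes averaged 3.48 ± 0.029 (SD, n = 4) on the mock arrays and 0.099 ± 0.058 (SD, n = 4) on the arrays labelled CFC1. The median over coding probes averaged 1.82 ± 0.111 and 0.073 ± 0.086 (SD, n = 4). As each probe has its own baseline, these medians do not compare RNA levels between the classes. No background flags came with the values, so a difference that runs down to background cannot be told from a bound. Whether the gap between the classes reflects such bounds was not tested. The 2 medians of differences were 1.62 log2 units apart, and 45 of the 47 noncoding probes lay below -2.29, the lowest coding value. The exceptions were MEG3 (4) and MEG3 (6). As the coding class holds 5 probes of 3 genes, its median is that of the second DLK1 probe. Counting each gene as the mean of its probes, the 2 medians were 2.08 apart. Of all probes, 0.682% lay at or below the snoRNA median difference, 0.925% at or below that of the long RNAs and 3.98% at or below that of the coding probes.

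**Figure D2:**
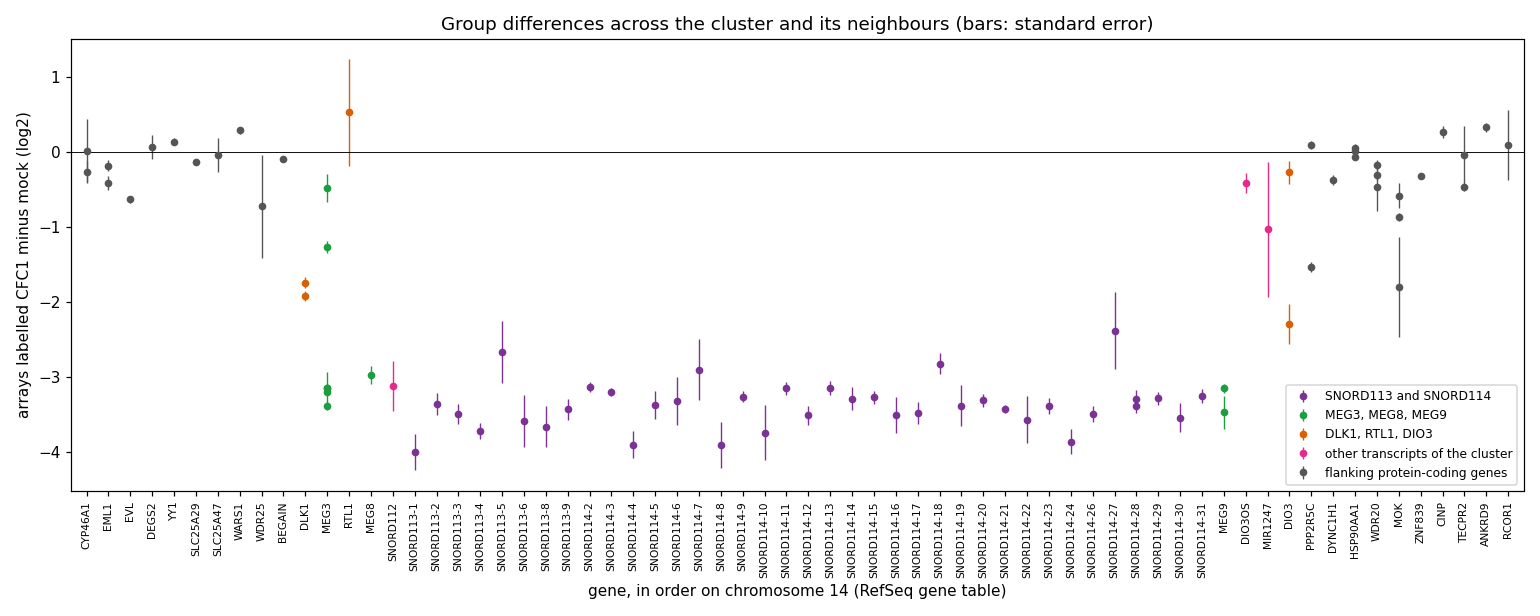
Difference between the groups (arrays labelled CFC1 minus mock, log2, vertical axis) for each probe of the cluster, of the other transcripts in it and of 10 flanking protein-coding genes per side, in gene order on chromosome 14, with bars of 1 standard error from limma (n = 4 arrays per group). The SNORD113 and SNORD114 probes lie between -4.0 and -2.38, and the flanking probes between -1.80 and 0.33.

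The members also differed in how far arrays of a group lay apart. The median SD over member probes was 0.099 on the mock arrays and 0.257 on the arrays labelled CFC1. In 47 of the 52 members (90.4%) the SD was larger on the arrays labelled CFC1, which held for 42.2% of all probes. Over all probes the median SDs were 0.201 and 0.159. The snoRNA medians were 0.096 and 0.295, with the larger SD on the arrays labelled CFC1 in 35 of 38 probes. The long RNAs had 0.067 and 0.142, and 9 of 9 probes went the same way, as did 3 of 5 coding probes. The larger SD thus lay mostly on the arrays with the lower values, and the part of the signal level in it was not tested.

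**Figure D3:**
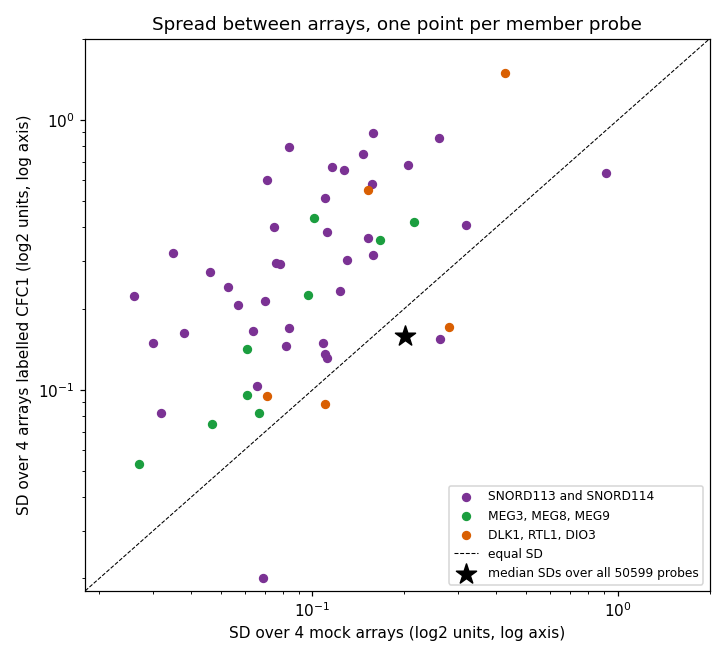
SD over the 4 arrays labelled CFC1 (vertical) against SD over the 4 mock arrays (horizontal), both in log2 units on log axes, with each point 1 member probe and the star the medians over all 50599 probes. Of the 52 points, 47 lie above the line of equal SD, while the star, at 0.201 and 0.159, lies below it.

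Other transcripts annotated between DLK1 and DIO3 had 3 probes. SNORD112, a C/D box snoRNA next to the SNORD113 series, averaged 3.28 ± 0.102 (SD, n = 4) on the mock arrays and 0.157 ± 0.712 (SD, n = 4) on the arrays labelled CFC1, a difference of -3.12 (SE 0.330, limma adjusted p = 0.000128). It was no member by the rule and lay within the range of the SNORD113 and SNORD114 differences. DIO3OS, the antisense neighbour of DIO3, differed by -0.41 (limma adjusted p = 0.0402), but its groups overlapped. That call was lost in 11 of 15 alternatives, among them the omission of mock replicates 2, 3 or 4 or of CFC1 replicates 1, 2 or 3, where the difference ran from -0.43 to -0.31. MIR1247 differed by -1.03 (SE 0.900, limma adjusted p = 0.409), with a mock SD of 1.90.

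Beyond the cluster the differences were smaller. Of 30 probes of the 20 nearest protein-coding genes, 10 on each side, 4 were higher and 10 lower, 0 lay at -3 or below, and the median was -0.15. Next to DLK1, BEGAIN differed by -0.09 (limma adjusted p = 0.148) and WDR25 by -0.72 (limma adjusted p = 0.442). The WDR25 value rested on mock replicate 4, without which it was 0.017. WARS1, the cytoplasmic tryptophanyl-tRNA synthetase, rose by 0.29 (SE 0.050, limma adjusted p = 0.00222). Next to DIO3, the phosphatase subunit PPP2R5C had probes at -1.53 (SE 0.063, limma adjusted p = 7.46e-07) and 0.10 (limma adjusted p = 0.207), which disagree. The dynein heavy chain DYNC1H1 fell by 0.37 (SE 0.062, limma adjusted p = 0.00173). Chaperone gene HSP90AA1 had probes at 0.02, -0.06 and 0.05, and none was called. The sides had median differences of -0.11 (DLK1 side) and -0.24 (DIO3 side).

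The other groups of snoRNAs had median differences nearer to 0. The Prader-Willi region on chromosome 15 is the other large imprinted group of C/D box snoRNAs, expressed from the paternal chromosome. The list for that region had 55 probes, of which 24 were higher and 1 lower, with a median of 0.27. Of these, 28 measure snoRNAs, with 10 higher, 1 lower and a median of 0.15, and 27 measure other transcripts such as SNRPN and IPW. Of 11 SNORD116 probes, 8 were higher, none was lower (also none at an unadjusted p below 0.05), and the median was 1.12. SNORD116-28 rose by 2.28 (SE 0.569, limma adjusted p = 0.0131) and SNORD116-27 by 1.99 (SE 0.204, limma adjusted p = 0.000107). SNORD116-12 rose by 1.77 and SNORD116-11 by 1.44. Of 13 SNORD115 probes, limma called none in either direction (1 lower and 0 higher at an unadjusted p below 0.05), and the median was -0.13. All other C/D box snoRNAs had 137 probes, of which 27 were higher and 67 lower, with a median of -0.26. That list holds SNORD112, described above as lying in the DLK1-DIO3 cluster, and 4 snoRNAs of the Prader-Willi list. Its 132 probes outside both regions, most of them for snoRNAs in introns of housekeeping genes, gave 25 higher, 65 lower, a median of -0.26 and a range of -2.41 to 2.26. SNORD9 had probes at -2.41 and -1.22 (the latter not called, but called at -1.60 without mock replicate 2), SNORD92 fell by 1.53 and SNORD93 rose by 2.26. Among 151 probes of H/ACA box snoRNAs, which guide pseudouridylation, and small Cajal body RNAs, 50 were higher and 54 lower, with a median of -0.07. The largest changes there were SCARNA22, with probes at 3.16 and -0.10 (the latter not called), SNORA79 at 2.64, SNORA12 at 1.46 and 2.55, and SCARNA20 at 2.35.

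**Figure D4:**
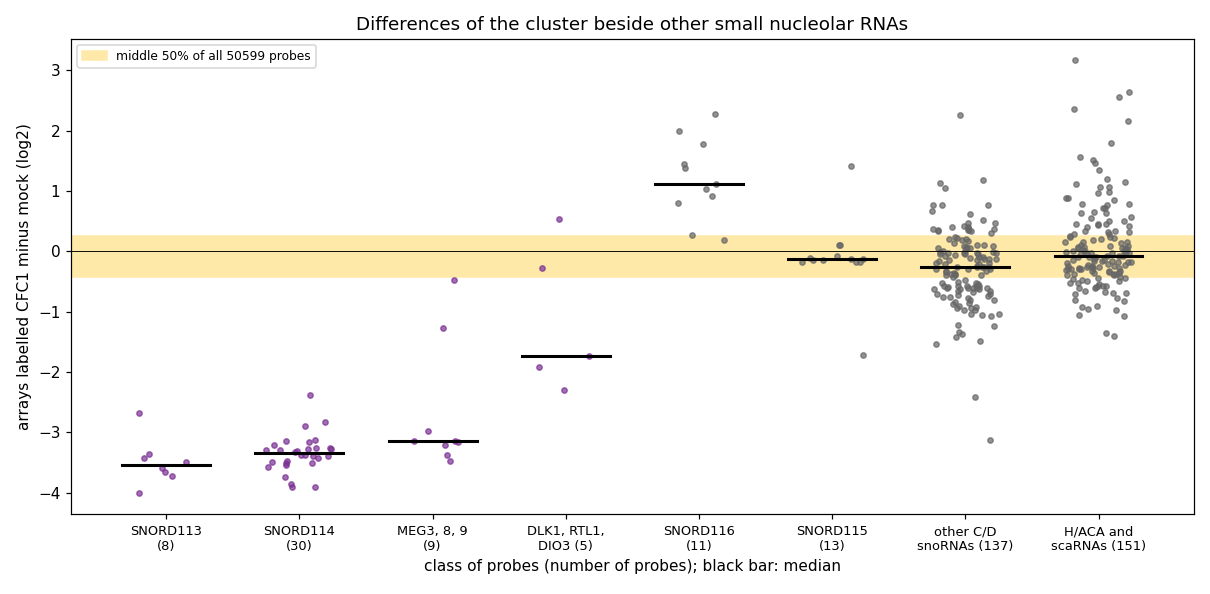
Difference between the groups (arrays labelled CFC1 minus mock, log2, vertical axis) by class of probes, with each point 1 probe, black bars the medians and the shaded band the middle 50% of all probes. The 4 classes of the cluster (purple) have 1 median at -1.74 and 3 below -3, and the 4 other snoRNA classes (grey) have medians from -0.26 to 1.12, the lowest grey point, at -3.12, being SNORD112.

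Proteins that assemble on or modify through snoRNAs changed in both directions. Of 24 probes of 18 such genes, 11 were higher and 8 lower, with a median of 0.04. NOP56, a core C/D box protein, had probes at -1.92, 0.34 and 0.03 (the last not called), which disagree. The pseudouridine synthase DKC1 had probes at 1.72 (SE 0.210) and 0.45 (SE 0.050), both called higher but unlike in size. The assembly factor RPAP3 rose by 0.80 and the H/ACA protein GAR1 by 0.74. Of 33 probes of genes that set or maintain DNA methylation and imprints, 13 were higher and 6 lower, with a median of 0.24. DNMT3A, a de novo DNA methyltransferase, fell in all 3 probes, by 1.34, 1.28 and 1.29. TRIM28, a corepressor that protects imprints, rose by 1.33, and the DNA demethylase TET1 rose by 0.71, 0.56 and 0.41. AFF3, which is known to bind the control element of this cluster, had probes at 1.66, 1.51 and 0.20 (the last not called). Methylation itself was not measured. Against the cluster, these lists are described by counts and medians, and no difference between lists was tested.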

How the data were processed

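Total RNA from NGP cells was measured on 8 one-colour Agilent arrays, 4 labelled mock and 4 labelled CFC1, each group being taken from the sample titles. The deposited table gives, for each of 50739 rows and each array, a value that was read as log2, relative to a baseline per probe. How the authors extracted features, treated background and scaled arrays, and which log base and baseline they used, is not given in the sources used here, and no background or saturation flags came with the values. Precision is limited by the number of arrays.

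Without the 140 control spots, 50599 probes were fitted together by lmFit and eBayes of limma 3.58.1 under R 4.3.3 (all 8 arrays, equal weights, no replicate block), two-sided, with Benjamini-Hochberg adjustment and a threshold of 0.05. Probes of a gene were kept apart, since the rule chooses probes. A class level is the median over its probes on an array, then the mean ± SD over arrays. Tables and plots were made with Python 3.11.15. The fit was tested on simulated data. Symbols, gene order and promoter sequences came from RefSeq tables of GRCh38.p14, and 50 of the 52 members had their accession there. Apart from the promoter windows, coordinates are not printed, as the genome build behind the array's annotation is unnamed.

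The members and all lists were chosen with earlier results of these data known. All members outside the SNORD113 and SNORD114 families are named with their 8 values, and of those families the 6 highest and 6 lowest differences. From each other list up to 4 genes are named, those with the largest difference among genes called without overlap of the groups, and of the flanks the 3 nearest genes per side. PHOX2A, TH, DBH, HAND2 and GATA3 were added after their values were seen, as defining markers. IGF2, PPP1R9A, PEG10, PECAM1 and CDH5 were also added then, as genes that differed otherwise than those named from their lists. SESN1, MDM4 and BAX were added to complete the p53 list. No probe was matched for 11 listed genes, which were not analysed here. A few genes stand in more than 1 list, SNORD112 among them. Alternatives were a replicate block, quantile normalization, median centring, a variance trend, unmoderated variances, array weights, gene means, and omission of each array.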

Additional observations from a re-analysis of the deposited data

Results flagged for a closer look

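In 3 of the 52 groups of 4 arrays tested for the named members, 1 array stood apart from the other 3 by Dixon's criterion, and chance flags about 1 group in 20. For SNORD114-4, mock replicate 2 read 3.501, below the other mock arrays at 3.707 to 3.736. For SNORD114-8, replicate 4 of the arrays labelled CFC1 read 0.837, above the others at -0.570 to -0.372. For SNORD114-27, replicate 2 of the arrays labelled CFC1 read 0.808, above the others at -0.557 to -0.334. The arrays that stood apart differ from probe to probe.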

How the results depend on the processing

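None of 21 summary results reversed, and 10 kept their side of the threshold, or for a count or median stayed close to the value reported, under all 15 alternatives. Among the 52 member probes, 763 of 765 results kept their side. The exceptions were MEG3 (6) with the replicate block (-0.48) and without CFC1 replicate 2 (-0.607), where it was called. Members called lower numbered 42 to 50 over the alternatives, the lowest counting 43 genes by their means, and members called higher 0 in all. Under quantile normalization the median differences were -2.906 for the snoRNAs, -2.854 for noncoding and -1.187 for coding probes. With gene means the coding median was -1.280 and the gap between classes -2.084. Leaving out 1 array, the noncoding median ran from -3.375 to -3.261.

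Of the other transcripts between DLK1 and DIO3, 1 in place of 2 was called with the replicate block, quantile normalization, median centring, unmoderated variances and array weights, and 1 to 2 when an array was left out. Of the flanking probes, 9 in place of 14 were called with median centring. Gene means, which hold fewer features, gave 14 calls for the Prader-Willi list in place of 25, 11 for control of imprinting in place of 19, 5 for thyroid hormone handling in place of 11 and 7 for the p53 list in place of 13. The thyroid list had 7 under quantile normalization and median centring. CFC1 itself passed the threshold with array weights (-0.805) and gene means (-0.796), and ran from -0.944 to -0.568 when an array was left out.

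Of 1211 results for named genes outside the cluster, 13 lost their call (DIO3OS, 1 MED1 probe under quantile normalization at -0.279, and 1 HR probe under median centring at -0.279) and 3 gained one (BEGAIN at -0.092 with unmoderated variances, NOP56 at 0.270 under quantile normalization, SNORD9 without mock replicate 2). Deviations of arrays with the same number correlated at 0.0953 to 0.1974, and each array correlated best with its own number, but the labels do not say that numbers mark a shared source. With the replicate block 11829 probes were called lower in place of 11166, and 50 members in place of 49. Lower calls made up 52.4% of all calls, 42.7% under quantile normalization. Without flags, differences that run down to background cannot be told from bounds.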

Other observations

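Gene families related to the coding members were also counted. Of 17 probes of Notch receptors, their ligands and target genes, the family to which DLK1 is related, 7 were higher in the arrays labelled CFC1 and 3 lower, with a median difference of 0.42. The receptors NOTCH2 (7.25 and 8.22, limma adjusted p = 5.71e-09 and 4.52e-08) and NOTCH3 (6.42, limma adjusted p = 3.13e-08) rose, and the ligand JAG1 fell by 4.0 (limma adjusted p = 1.02e-06). NOTCH1 had probes at 3.09 and 0.12, the latter not called. Of 21 probes for thyroid hormone handling, the pathway of DIO3, 1 was higher and 10 lower, with a median of -0.15. The thyroid hormone receptor THRB fell by 1.39 and 2.34, the coactivator MED1 by 0.58 and 0.71 and the hormone-binding protein CRYM by 0.52, while the corepressor HR had probes at 0.43 and -0.32. Of 16 probes of genes that, like RTL1, derive from retrotransposon Gag sequences, 5 were higher and 7 lower, with a median of -0.13. RTL5 fell by 3.40, and PNMA5, LDOC1 and PNMA3 rose by 3.11, 3.09 and 2.98.

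Of 47 probes of imprinted genes elsewhere, 17 were higher and 13 lower, with a median of 0.02. GRB10, an adaptor of the insulin receptor, rose by 7.15 and 8.44, the noncoding RNA H19 by 3.71 and 4.03, PHLDA2, which limits placental growth, by 4.71 and MIMT1 by 4.0. Deep falls were found here too. IGF2 had probes at -3.73 and -2.20, PPP1R9A at -2.79 and -2.69, and PEG10 at -2.13. Of 14 probes of genes around p53, on which MEG3 has been described to act, 4 were higher and 9 lower, with a median of -0.29. MDM2, the ubiquitin ligase of p53, fell by 1.5, 2.16, 2.35 and 1.66, and GDF15, BBC3 and CDKN1A rose by 2.99, 1.61 and 1.45. The rest of that list did not rise together. SESN1 differed by -0.24, MDM4 had probes at -0.43, -0.39, -0.26 and -0.32, and BAX had probes at 0.29 and -0.05 (the latter not called). Among markers of other cells, RGS5, a mural cell gene, fell by 3.93 and 3.73, the endothelial receptor KDR by 3.08 and the epithelial protein EPCAM by 2.86, while the keratin KRT19 rose by 2.84. The other endothelial markers did not go with KDR. PECAM1 had probes at -0.05, -0.12 and -0.15 and CDH5 a probe at 0.08, and none was called. Of the 436 probes with a gene symbol and a difference of -3 or below, 9.17% belong to the DLK1-DIO3 cluster, a share that its choice for this contrast fixes in part.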
